A study of Caenorhabditis elegans with 2 samples.

Results

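The regions described here are the 458 tall intergenic peaks far from annotated starts in a map of the sites of the zinc finger protein Y79H2A.3 in Caenorhabditis elegans. They were taken from the 77086 entries that the submitters ranked by comparing both replicates. A member has a deposited signal value, the height the authors' peak caller gave the joined peak, of 50 or more. Its summit lies outside every annotated transcript and outside the window from 1000 bp upstream to 200 bp downstream of every annotated transcript start, noncoding genes included. Of the 3440 entries as tall as this, these 458 met the position rule, and they make 456 loci when overlapping entries are counted once. Members were set against the 9758 entries that meet the same position rule with a signal value under 50 (8360 loci, called low intergenic entries below) and against the 2982 entries of 50 or more that the position rule leaves out (2976 loci, called tall entries elsewhere). The signal value chose the members, so heights, replicate values and reproducibility are given as descriptions, and tests are kept to position and sequence.

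The animals were whole worms of strain RW12273, in which CRISPR put a TY1, EGFP and 3xFLAG tag on Y79H2A.3, grown to young adults of 63 hours after synchronisation as starved first-stage larvae. Chromatin was sonicated and precipitated with an anti-GFP antibody. There is 1 group of 2 biological replicates, and every animal carried the tag. Whole animals were used, so a peak present in few cells and a weak peak in many cannot be told apart, and no precipitation from untagged worms and no input was analysed here.

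Sequence-specific factors are usually mapped to promoters and enhancers, but precipitation maps also hold peaks in other places. One is the short space just past the 3' end of a gene, where RNA polymerase pauses and terminates and where, in the compact worm genome, a neighbouring gene may end on the other strand. Another is arrays of tandem repeats, short units copied head to tail, some of which in worms belong to mobile elements.

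The sequences at the summits show both kinds of place. The 4 tallest members lay in tandem repeats. Their summit sequences are shown first because they carry the highest signal values of all members; they are plus-strand bases of the NCBI RefSeq copy of WBcel235, the assembly also called ce11, and the capitals mark 1 repeat unit that starts at the summit.
chrIV:2828920-2829020, 27-bp unit, signal value 593: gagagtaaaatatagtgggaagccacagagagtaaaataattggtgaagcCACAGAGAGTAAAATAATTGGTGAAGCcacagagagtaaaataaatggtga
chrV:16708477-16708577, 20-bp unit, signal value 450.5: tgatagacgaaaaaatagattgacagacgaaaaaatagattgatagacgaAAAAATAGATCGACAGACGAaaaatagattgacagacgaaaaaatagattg
chrIV:9048569-9048669, 27-bp unit, signal value 396: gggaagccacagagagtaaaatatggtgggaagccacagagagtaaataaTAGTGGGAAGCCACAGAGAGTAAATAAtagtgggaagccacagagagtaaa
chrII:14337794-14337894, 27-bp unit, signal value 387: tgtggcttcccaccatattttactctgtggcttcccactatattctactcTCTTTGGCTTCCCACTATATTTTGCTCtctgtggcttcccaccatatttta
The 3 sequences with a 27-bp unit belong to 1 family, joined by 12-mers they share on either strand.

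The next 2 sequences come from the most numerous repeat family, with a main unit of 40 bp, and were chosen after the values were seen. Capitals mark matches to GAA, TTC and GAA in turn with any 2 bases between neighbours, or to the reverse complement, both strands searched and overlapping matches joined. These are the letters of a heat shock element, which the heat shock transcription factor binds.
chrX:1375190-1375290, signal value 290: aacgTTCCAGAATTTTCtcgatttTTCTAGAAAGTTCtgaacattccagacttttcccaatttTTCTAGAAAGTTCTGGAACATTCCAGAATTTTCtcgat
chrV:7923556-7923656, signal value 248: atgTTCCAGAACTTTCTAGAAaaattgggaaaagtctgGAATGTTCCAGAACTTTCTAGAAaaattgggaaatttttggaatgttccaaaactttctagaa

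The sequences at 8 tall members without repeated sequence are shown for comparison, with CpG dinucleotides in capitals. Bases that belong to an annotated gene were left off, which is why some are short.
chrII:4703220-4703253, between the ends of unc-85 and F10G7.9, signal value 195: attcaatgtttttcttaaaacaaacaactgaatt
chrIII:7102050-7102089, between the ends of ZK418.11 and cpg-2, signal value 187: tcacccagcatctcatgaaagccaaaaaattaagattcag
chrV:16745002-16745102, past the end of gyg-2, signal value 180: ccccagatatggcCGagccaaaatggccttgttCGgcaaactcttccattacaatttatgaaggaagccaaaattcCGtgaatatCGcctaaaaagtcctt
chrIV:6423498-6423594, past the end of puf-11, signal value 169: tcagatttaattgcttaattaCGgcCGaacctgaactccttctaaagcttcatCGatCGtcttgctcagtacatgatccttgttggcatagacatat
chrIII:10811002-10811084, past the end of klp-7, signal value 168: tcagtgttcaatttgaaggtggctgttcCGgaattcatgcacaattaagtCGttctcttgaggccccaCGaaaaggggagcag
chrII:10932471-10932571, past the end of R03D7.2, signal value 159: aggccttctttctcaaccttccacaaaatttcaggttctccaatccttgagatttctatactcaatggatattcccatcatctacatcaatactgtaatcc
chrX:1503935-1504035, past the end of the noncoding RNA gene tts-1, signal value 207: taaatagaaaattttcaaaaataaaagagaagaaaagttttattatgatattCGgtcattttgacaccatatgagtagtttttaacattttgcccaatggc
chrIII:8860898-8860998, between plg-1 and K01F9.2, signal value 173: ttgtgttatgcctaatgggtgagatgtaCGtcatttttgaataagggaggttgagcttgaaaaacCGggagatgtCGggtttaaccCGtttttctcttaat
Of these 8, 6 lay within 500 bp past the end of a protein-coding gene.

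Signal values of the 458 members ran up to 593, with a median of 61.4. The 3 members just inside the limit had 50.01, 50.12 and 50.14, and the 3 entries just outside had 49.99, 49.97 and 49.93. The joined value and the value in each replicate stand in separate columns of the deposited list. Of the first replicate column, 437 of the 458 values were found in the list of replicate 1, and of the second, 430 were found in that of replicate 2. The median was 30.6 in the first column and 34.2 in the second. The first was the higher at 194 members (42.4%), against 37.8% of tall entries elsewhere. In 64 members (13.97%) the columns were more than 2-fold apart, against 13.51% of tall entries elsewhere and 26.28% of low intergenic entries. The widths were nearly uniform, with 452 members of 296 bp.

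The members fall into 3 kinds by the sequence and genes around the summit. In 96 members the sequence was repeated, which here means that under 50% of the 31-mers within 100 bp of the summit occur once in the genome. Another 188 were not repeated and lay within 500 bp past the annotated end of a protein-coding gene, on that gene's own strand. The other 174 had neither feature. The median signal value was 83.9 in repeated members, 64.0 in the gene-end members that were not repeated and 58.2 in the remaining ones. The repeated members hold the upper end, and the highest member without repeated sequence (207, past tts-1) ranked 14. At that member 83.0% of the 31-mers occurred once, but 94.0% of the bases within 100 bp were soft-masked, the assembly's mark for repeats.

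**Figure D1:**
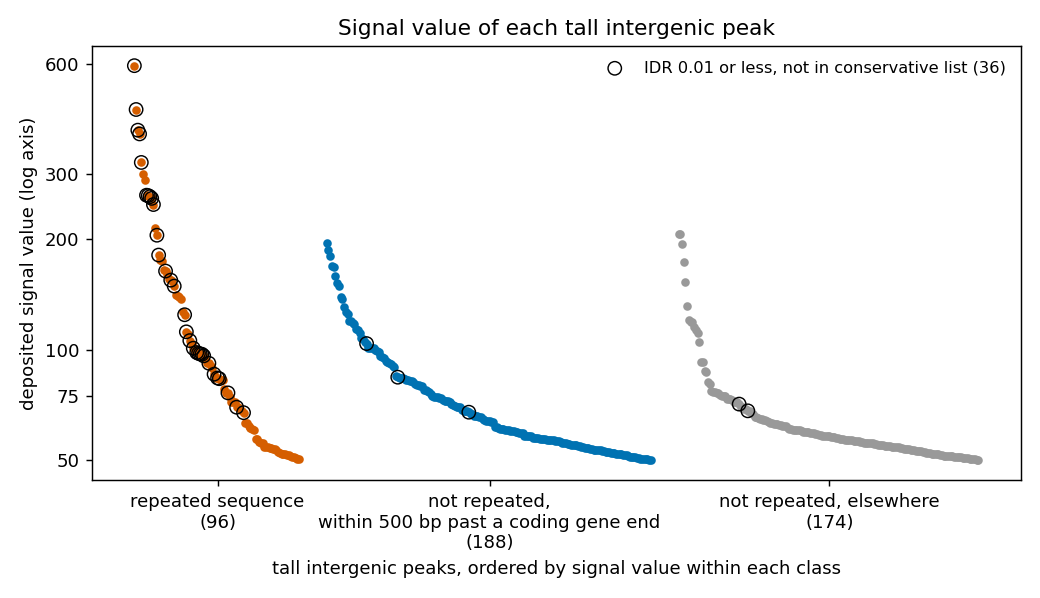
Signal value (log axis) of each of the 458 members, ordered by height within 3 classes; open circles mark 36 entries with an irreproducible discovery rate of 0.01 or less that the conservative list lacks. The class with repeated sequence (96 members) reaches 593, while the others stay at or under 207, and 31 of the 36 circles lie in it.

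Repeated sequence was more frequent among the members than in either comparison set. It was found at 94 of 456 member loci (20.6%, Wilson 95% interval 17.2 to 24.6), against 750 of 8360 low intergenic loci (8.97%, 8.38 to 9.60; Fisher's exact test, two-sided, adjusted p = 9.19e-13). Among tall loci elsewhere it was found at 159 of 2976 (5.34%, 4.59 to 6.21; Fisher's exact adjusted p = 3.61e-23). The position rule divides these sets, so this second comparison cannot tell a trait of members from one of intergenic places. P-values were adjusted by the Benjamini-Hochberg method over 10 tests of shares. Of the 134 member loci in the conservative list, 14.2% were repeated. Neither the difference from all low intergenic loci (8.97%) nor that from the 811 tall loci elsewhere in the same list (7.89%) passed (Fisher's exact adjusted p = 0.0670 and 0.0508). How reads in repeated sequence were placed is not given in the sources used here, and its part in these heights was not tested.

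Most repeated members were tandem repeats. In 78 members the bases within 100 bp of the summit matched the bases 1 period further on at 70% or more of positions, with a period between 2 and 100 bp. Of these 78, 72 were also among the repeated members. Such arrays were at 76 of 456 member loci (16.7%), against 2.26% of low intergenic loci and 1.68% of tall loci elsewhere (Fisher's exact adjusted p = 3.69e-36 and 3.88e-36, a definition added after seeing the data). Because the definition came after the data had been seen, these p-values are descriptive and not independent support. Grouped by shared 12-mers, the arrays made 9 families of 2 or more members and 14 single ones, and 3 of the families held 46 of the 78 members.

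The largest family had a main unit of 40 bp and 24 members spread over all 6 chromosomes. Signal values ran from 50.8 to 302, with a median of 91.0. The median was 45.8 in the first replicate column and 47.1 in the second, the first was the higher in 10 of 24, and in 4 members the columns were more than 2-fold apart. At its tallest member, on chromosome I between Y105E8B.9 and ttm-5, the columns held 123 and 184. The X chromosome member past fbxa-190, an F-box gene, held 141 and 153, and the chromosome V member between F40A3.7 and srsx-7, a chemoreceptor gene, held 124 and 140. All 24 carried the heat shock element letters within 100 bp of the summit. In all, these letters were at 30 of 456 member loci (6.58%, Wilson 95% interval 4.65 to 9.24), against 150 of 8360 low intergenic loci (1.79%) and 61 of 2976 tall loci elsewhere (2.05%). Within tandem arrays they were at 23 of 76 member loci (30.3%), 32 of 189 low intergenic loci (16.9%) and 17 of 50 tall loci elsewhere (34.0%). Outside tandem arrays they were at 1.84% of member loci, 1.44% of low intergenic loci and 1.504% of tall loci elsewhere. The letters were looked for after the sequences had been seen, so no test is given, and a match is a run of letters and not a bound site.

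The second family had a main unit of 27 bp and 14 members, also on all 6 chromosomes, and it held 4 of the 5 tallest peaks. Signal values ran from 56.2 to 593, with a median of 145. In this family the first replicate column was the higher in 13 of 14 members, with medians of 97.0 in the first and 45.1 in the second. The tallest of all, on chromosome IV between the ends of clec-80, a C-type lectin gene, and Y54G2A.48, held 410 in the first column and 214 in the second. The chromosome IV member near Y73F4A.1 and the nuclear hormone receptor gene nhr-11 held 282 and 137. A neighbour in the same interval (263) held 221 and 39.5, a 5.59-fold difference between the columns. The chromosome III member between the ligand-gated channel gene lgc-50 and the aldehyde dehydrogenase gene alh-12 (323) held 232 and 86.2. None of the 14 held the heat shock element letters.

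The third family, with a main unit of 20 bp, had 8 members on 4 chromosomes, and the first column was the higher in all 8, with a median ratio of 3.00. Its tallest member, on chromosome V between clec-9 and the chemoreceptor gene srh-137 (450.5), held 370 and 123, and its neighbour (258) held 221 and 73.4. The 3 members of all 458 whose columns differed most were of this family. The chromosome IV member between acr-25, an acetylcholine receptor gene, and tmed-13 (154) held 174 and 8.42. The chromosome III member between fbxa-77 and fbxa-208, both F-box genes (74.4), held 72.6 and 5.28, and the chromosome II member between sre-47 and Y39G8B.5 (111) held 106.5 and 9.05. The next was a repeated member on chromosome III between gmeb-3 and the galectin gene lec-4 (82.8), with 83.5 and 8.82. The fifth was not repeated: it lay on chromosome II, 7 bp past the end of pno-1 and across from mab-3, a gene of male development, and held 34.0 and 4.82 (joined value 57.4). All 5 were higher in the first column, and with 2 replicates no test of such a difference was made.

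**Figure D2:**
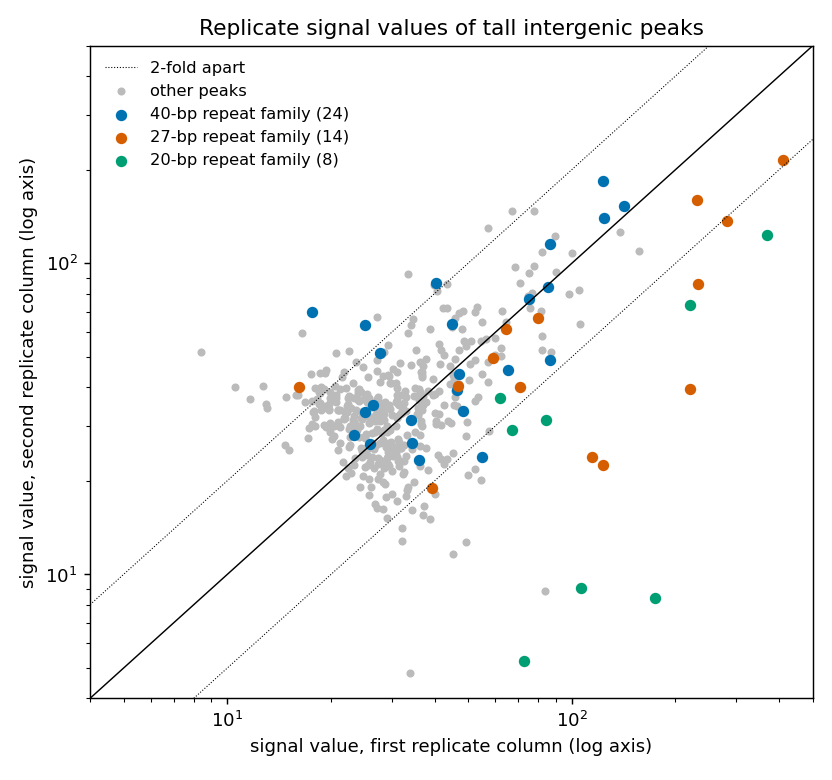
Signal value in the second replicate column against the first for each of the 458 members, on log axes, with the line of equality and dotted lines at a 2-fold difference. The 27-bp family (14) and the 20-bp family (8) lie mostly below the line, with the first column higher in 13 and 8 members, while the 40-bp family (24) lies on both sides, with the first higher in 10.

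Many of the tallest members were missing from the authors' conservative list. An irreproducible discovery rate (IDR) of 0.01 or less in the deposited list was reached by 171 of 458 members (37.3%), against 819 of 2982 tall entries elsewhere (27.5%) and 1065 of all 77086 ranked entries (1.38%). Since IDR is computed from the same heights that chose the members, nothing is read from the difference. Of the 819, all but 6 were also in the conservative list, which the authors made by thresholding the replicate comparison (0.733% missing). Of the 171 members, 36 were not in it (21.1%). Those 36 make up most of the 44 such entries among all ranked ones. They include all 5 of the tallest members and 10 of the tallest 12. Of the 36, 31 were repeated, 29 were tandem arrays, and none overlapped the thresholded list of the pooled reads or of either replicate. The deposited notes list 1 more input file for the thresholded lists than for the ranked ones and do not say what it did.

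The families differed in how many of their entries were missing, but 5 of the 36 missing entries were not repeated. On chromosome II all 4 loci between Y54G11A.14 and ddl-3 were missing, and 2 of them were tandem arrays. In the 27-bp family all 10 members at an IDR of 0.01 or less were missing from the conservative list. In the 20-bp family all 5 were missing, in the larger 26-bp family all 4, and in the 45-bp and 96-bp families both. The 15-bp family and the smaller 26-bp family had 1 such member each, and it was kept. In the 40-bp family 4 of 14 were missing and 10 were kept. The 4 missing ones lay in a single interval of chromosome V, between F40A3.7 and srsx-7.

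**Figure D3:**
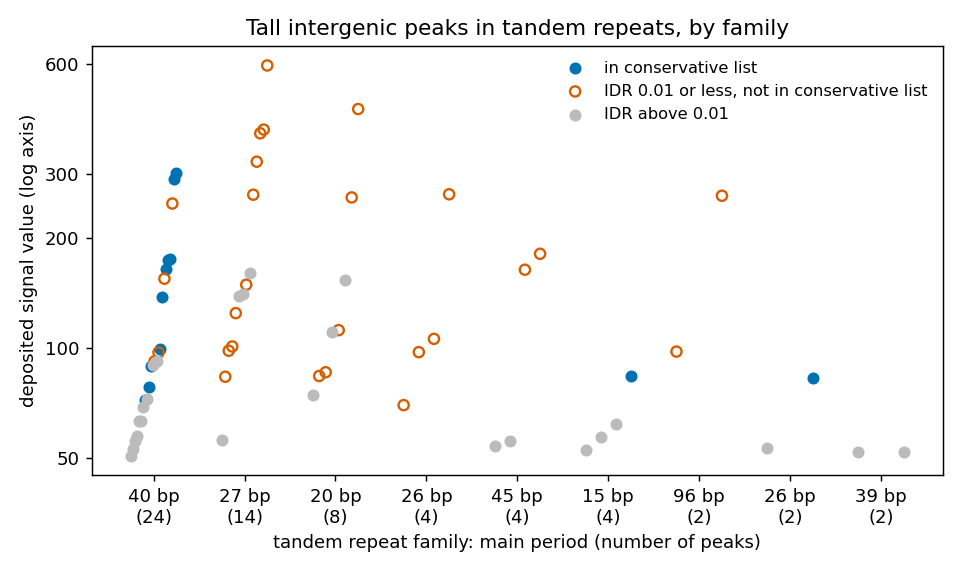
Signal value (log axis) of the members in tandem repeat families with 2 or more members, by main period of the repeat; filled blue points overlap the conservative list, open points reached an IDR of 0.01 or less but are missing from it, and grey points did not reach it. The open points hold the top of the 27-bp and 20-bp families, up to 593, while the 2 tallest of the 40-bp family, at 302 and 290, are in the list.

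Some members stood close together. Of the 456 loci, 41 lay in 10 groups of 3 or more with summits within 10000 bp of the next. The largest, with 7 loci over 10986 bp of chromosome V between F40A3.7 and srsx-7, consisted of tandem arrays with units of 40 and 15 bp and signal values from 52.5 to 248. A group of 6 on chromosome III between plg-1, the gene of the mating plug mucin, and K01F9.2 had values from 57.5 to 261. On the same chromosome, 4 loci of the 27-bp family lay within 3046 bp between lgc-50 and alh-12, with values from 100.98 to 323. Chromosome II had 4 loci between Y54G11A.14 and ddl-3, with values from 68.2 to 387, and 3 between Y39G8B.9 and Y39G8B.5, with values from 53.3 to 112. A group of 4 on X, between Y102F5A.1 and rsd-3, a gene of RNAi spreading, had values from 54.3 to 263. The 4 groups on chromosome I held no repeated locus. They were 4 loci between mstr-1 and nars-1, an asparaginyl-tRNA synthetase gene, with values from 53.8 to 92.8, 3 between fkb-2 and Y18D10A.21 with 72.8 to 100.8, 3 between Y52B11A.11 and the cadherin gene hmr-1 with 53.0 to 74.8, and 3 between smp-2, a semaphorin gene, and the GTPase gene rab-8 with 52.8 to 61.6. Over all 10 groups, 20 of the 41 loci were repeated and 16 were missing from the conservative list at an IDR of 0.01 or less.

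The second main feature of the members was their place just past gene ends. Within 500 bp downstream of a protein-coding gene end lay 196 of 456 member loci (43.0%, Wilson 95% interval 38.5 to 47.6), against 1774 of 8360 low intergenic loci (21.2%, 20.4 to 22.1; Fisher's exact test, two-sided, adjusted p = 3.61e-23). The median distance past the nearest coding end was 839.5 bp for members and 2922.5 bp for low intergenic loci. The difference was in the first 250 bp. Up to 100 bp past an end lay 17.98% of member loci (82), against 5.68% of low intergenic loci, and from there to 250 bp another 17.98% (82), against 7.34%. Between 250 and 500 bp the shares were 7.02% and 8.19%, with intervals that overlap. Tall entries elsewhere were not compared here, since the position rule itself decides which ends they can lie past.

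**Figure D4:**
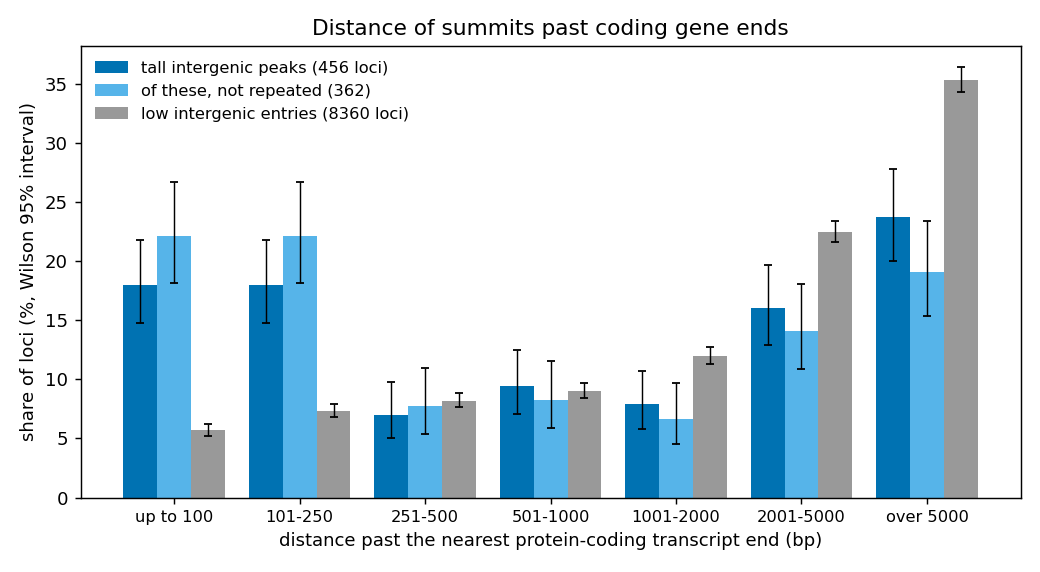
Share of loci by distance of the summit past the nearest protein-coding transcript end, for all members (456 loci), members without repeated sequence (362) and low intergenic entries (8360), with Wilson 95% intervals. The first 2 bins are up to 100 bp and over 100 up to 250 bp. In each of them lie 17.98% of members and 22.1% of members without repeats, against 5.68% and 7.34% of low intergenic entries.

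Without repeated sequence the share past gene ends was larger, 51.9% of member loci against 21.9% of low intergenic loci (Fisher's exact adjusted p = 6.13e-33; an alternative chosen after seeing the data). Repeated members were rarely at gene ends: 8 of 96 entries lay within 500 bp past one, among them the chromosome IV member 328 bp past zip-11, a bZIP factor gene (214), with 100.4 and 108 in the replicate columns. The tandem arrays and the gene-end members were thus mostly different entries.

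Members were also more often between genes that end towards each other. Of 456 loci, 136 lay in such convergent intervals (29.8%, Wilson 95% interval 25.8 to 34.2), against 1341 of 8360 low intergenic loci (16.0%, 15.3 to 16.8; Fisher's exact adjusted p = 2.68e-12). Intervals between genes on the same strand held 52.2% of members and 56.1% of low intergenic loci, and divergent ones 17.98% and 27.9%. Intervals that hold a member had a median length of 5224 bp, against 6522.5 bp for low intergenic loci. In 35 members the interval was at most 500 bp, with a median length of 284 bp. All 35 of these were convergent, which the position rule fixes, since in so short an interval of another kind every site lies within 1000 bp upstream of a start. Within convergent intervals alone the share past a gene end was 65.4% for members and 56.5% for low intergenic loci, which did not pass (Fisher's exact adjusted p = 0.0996, added after seeing the data). Within same-strand intervals alone, added likewise, it was 45.0% and 21.7%, which passed (Fisher's exact adjusted p = 1.03e-13). With intervals of at most 5000 bp, also added then, it was 72.2% and 45.2% (Fisher's exact adjusted p = 8.65e-14).

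At the 12 tallest gene-end members without repeated sequence, the first replicate column was between 0.750 and 1.67 times the second. Of all 188 members of this kind, 19 (10.1%) had columns more than 2-fold apart. At unc-85, which encodes a histone chaperone, the summit lay 14 bp past the gene end in an interval of 34 bp that it shares with F10G7.9, and the columns held 81.8 and 109. At cpg-2, a chondroitin proteoglycan gene of the eggshell, it lay 3 bp past the end in an interval of 42 bp, with 98.2 and 79.6. At gyg-2, a glycogenin gene, it lay 57 bp past the end with 90.0 and 94.1. At puf-11, an RNA-binding protein gene of the Pumilio family, it lay 47 bp past the end with 77.8 and 98.3. All 4 lay in convergent intervals and overlapped the conservative list.

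The other 8 of these 12 are named by the gene whose end they follow. The summit 33 bp past klp-7, a microtubule-depolymerising kinesin gene that faces the calcium pump gene sca-1, had a signal value of 168, with 76.8 and 80.3 in the columns. That 191 bp past R03D7.2 and across from the methionine synthase gene metr-1 had 159 (75.1 and 92.8). The summit 269 bp past vab-19, which faces pqn-42, had 152 (75.7 and 72.04). At cbd-1, a gene for a chitin-binding eggshell protein, it lay 10 bp past the end with 149 (81.7 and 70.5). The summit 23 bp past W05F2.3 on chromosome I had 139 (64.6 and 64.8), and that 44 bp past the ribosomal protein gene rps-6 had 137, with 86.8 and 51.9. At K08D12.4, 6 bp past the end and facing the proteasome gene pbs-1, it was 131 (62.5 and 70.1), and 57 bp past F39G3.3 it was 126 (54.9 and 64.6). Of the 12, 10 lay in convergent intervals, and rps-6 and F39G3.3 in same-strand ones. The 12 are the tallest of their kind, a set picked after the values were seen.

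Noncoding genes flank some of the tall members. The highest without repeated sequence (207) lay 146 bp past the end of tts-1, a long noncoding RNA gene on X, inside the interval between F09E10.1 and toca-1, with 67.3 in the first column and 147 in the second. On chromosome I, between kin-35 and rpa-2, a replication protein gene, the summit lay 184 bp past a pseudogene (206, with 89.5 and 123). Also on chromosome I, between the importin gene imb-3 and the exportin gene xpo-2, it lay 426 bp past a pseudogene (194.5, with 105 and 81.9). The nearest start of any kind belonged to a protein-coding gene at 322 members, to a gene annotated as ncRNA at 62, to a pseudogene at 44, to a piRNA gene at 13, to a microRNA or a lincRNA gene at 5 each, to a small nucleolar RNA gene at 4, to a tRNA gene at 2 and to a ribosomal RNA gene at 1.

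Of the 20 tallest members, those not yet described were all repeated. On X, a 26-bp array between Y102F5A.1 and rsd-3 had 263, with 157 and 110 in the columns. On chromosome III, a 96-bp array between plg-1 and K01F9.2 had 261 (138 and 126). On chromosome IV, a 96-bp array between ark-1 and C26H9A.3 had 205 (77.5 and 147), and a 45-bp array upstream of vha-19, a proton pump gene, had 181 (57.2 and 130). Of the 20, 15 were repeated, 12 were missing from the conservative list and 8 overlapped it.

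Along the genome, members were spread over the autosomes and fewer on X. Chromosome I held 95 of the 458, II held 73, III held 85, IV held 80, V held 75 and X held 50. By loci, X had 10.7% of members (49 of 456, Wilson 95% interval 8.22 to 13.9), against 21.5% of low intergenic loci (Fisher's exact adjusted p = 1.07e-08). The share on X among tall loci elsewhere was 8.60%, a difference that did not pass (2.14 percentage points, Fisher's exact adjusted p = 0.167). Without replicate 1 that difference was 3.98 points and passed (Fisher's exact adjusted p = 0.0136). Repeated members were 6 of 95 on chromosome I and 24 of 75 on chromosome V.

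The arms of the autosomes, taken as the outer 25% of length at each end, held 50.9% of autosomal member loci (207 of 407, Wilson 95% interval 46.0 to 55.7). That was higher than the 40.9% of tall loci elsewhere (Fisher's exact adjusted p = 0.000271). Those loci are set apart by the position rule, so this cannot tell a trait of members from one of intergenic places. The difference of 1.41 percentage points from the 49.5% of low intergenic loci did not pass (adjusted p = 0.610, the same exact test). With a signal value of 75 or more, the arm share was 49.2% of members against 39.8% of tall loci elsewhere and did not pass (Fisher's exact adjusted p = 0.0728).

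**Figure D5:**
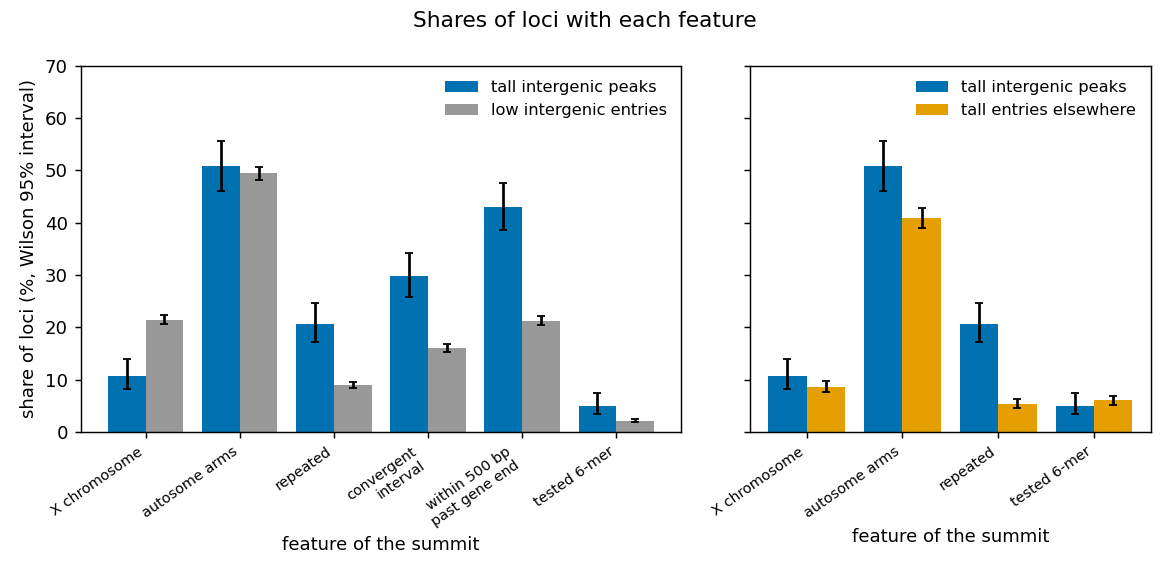
Share of loci with each feature for members against low intergenic entries (left) and against tall entries elsewhere (right), with Wilson 95% intervals; the tested 6-mer is the CpG-rich one named in the text, picked from these same data. Members stand above low intergenic entries for repeats (20.6% against 8.97%), convergent intervals (29.8% against 16.0%) and gene ends (43.0% against 21.2%), below them on X (10.7% against 21.5%), and above tall entries elsewhere for repeats and arms. The position rule divides members from tall entries elsewhere, so the right panel cannot tell a trait of members from one of intergenic places.

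GC content and CpG dinucleotides were counted at the summits and beside them, with no test. Within 50 bp of the summit the median GC content of member loci was 40.6% and the mean number of CpG dinucleotides 4.23, against 36.6% and 3.36 in windows of the same size centred 300 bp away. Tall loci elsewhere had a median of 43.6%, and low intergenic loci 36.6%. Members with neither repeats nor gene ends had the highest value of the 3 kinds, 43.6%, against 38.6% at gene ends and 39.1% in repeats. The 36 members that reached an IDR of 0.01 or less but are missing from the conservative list had a mean of 1.86 CpG, against 5.12 in the 135 members that overlap it.

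The 6-mer CGCGCC, picked from earlier results of these data as frequent at the summits of the whole list, was within 50 bp of 23 of 456 member summits (5.04%, Wilson 95% interval 3.38 to 7.45). It was at 2.13% of low intergenic summits (178 of 8360, Fisher's exact adjusted p = 0.000422) and at 6.01% of tall summits elsewhere (179 of 2976), a difference that did not pass (Fisher's exact adjusted p = 0.506). Because the 6-mer was picked from this same list, these p-values are not independent support, and nothing is concluded from them. Without replicate 1 the share was 3.66% against 2.24% of low intergenic summits and did not pass (Fisher's exact adjusted p = 0.0948). In members of the conservative list it was 11.2%, against 11.0% in tall loci of that list elsewhere.

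Across all 6-mers, counted on both strands, none was called at member summits against their own flanks in the exact McNemar test at an adjusted p under 0.05, a background of 0% called in each direction, while 170 had an unadjusted p under 0.05. The smallest adjusted p, 0.0557 by that exact test, was shared by 4 of them. CCCGAG was at 16 summits and 0 flanks, and GCGCGC at 18 summits and 1 flank. TTGAAA was at 69 summits and 116 flanks, and TTTAAA at 32 summits and 68 flanks. Next among those more frequent at summits were CGCGCA (24 summits and 4 flanks), ACAGCC (17 and 2) and GCGCAC (23 and 5). Next among those more frequent in flanks were AATCAA (25 summits and 57 flanks), TTAAAA (62 and 105) and ATATAA (17 and 45). The list depends on the flank drawn: with the opposite flank 14 6-mers were called, and with a signal value of 40 or more, which gives 1066 entries, 87 were.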

How the data were processed

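The deposited files are peak lists of 2 biological replicates on ce11, per the labels. The authors' signal value is the peak caller's height, with no stated scale. The authors' score and −log10 of the global IDR (irreproducible discovery rate) give reproducibility; a −log10 of 2 or more is an IDR of 0.01 or less. Which aligner, peak caller and control were used is not given in the sources used here. The files hold no read counts, so the depth is unknown and heights carry no counting error. The peak lists have 120 columns, of which 96 were not used.

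Members and lists were chosen with earlier results of these data known. Summits were placed against 59964 transcripts of Ensembl release 115, and 2 of the 458 members lay in a RefSeq gene. Interval type used the nearest protein-coding genes, and distance past a gene end the nearest coding transcript end upstream of the summit on its own strand. Shares of loci were compared by a two-sided Fisher's exact test, adjusted by Benjamini-Hochberg over 10 tests. Each 6-mer, both strands joined, was tested with the exact McNemar test within 50 bp of summit and flank. The threshold was 0.05. Wilson 95% intervals cover counting over loci only, and loci are not independent replicates, so every p describes these lists and not the spread between animals. Tandem families were arrays that share at least 5 12-mers. Named regions are the 20 tallest members, the 3 on each side of the signal limit, the 5 whose replicate columns differ most and every group of 3 or more loci within 10000 bp; the sequences printed are the 8 tallest without and 4 tallest with repeats off chromosome I. The 12 gene-end members and the 2 motif sequences were added after their values were seen. The tests were tried on simulated data with independent loci and random sequences, which leaves out the repeat units that members share. Alternatives changed the signal limit, the start window, the list, the locus counting, the comparison set, the repeat, end and summit distances and the flank. Python 3.11.15, numpy 2.4.6, pandas 2.3.3, scipy 1.17.1 and matplotlib 3.10.9 were used.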

Additional observations from a re-analysis of the deposited data

How the results depend on the processing

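The 10 comparisons of shares were recomputed 107 times in all, each under 1 alternative setting, and in 94 of these they kept their direction and their side of the threshold. The convergent share and the X share against low intergenic entries did so under every alternative run for them (11 and 10). With a signal value of 75 or more there were 142 members, the arm difference from low intergenic entries turned to -0.30 percentage points, and that from tall entries elsewhere was 9.44 and did not pass. With 40 or more there were 1066 members, the X difference from tall entries elsewhere was 2.67 and passed, that of CGCGCC turned to 0.112, and 87 6-mers were called. With the window from 2000 bp upstream to 500 bp downstream there were 288 members, the arm difference from low intergenic entries turned to -3.49 and the X difference from tall entries elsewhere to -0.159. With members and tall entries elsewhere limited to the conservative list (135 members), the repeat difference was 5.21 against low intergenic entries and 6.29 against tall entries elsewhere, and neither passed, while CGCGCC against tall entries elsewhere turned to 0.220. Within 25 bp of the summit the CGCGCC difference from low intergenic entries was 0.981 and did not pass. With the opposite flank 14 6-mers were called. With convergent intervals only, added after seeing the data, the gene-end difference was 8.99 and did not pass. With same-strand intervals only, added likewise, it was 23.3 and passed. In the lists of single replicates, CGCGCC exceeded low intergenic entries by 1.42 to 1.71 points, the X difference from tall entries elsewhere was 2.82 to 3.98, and 1 to 4 6-mers were called. The causes were not tested. Without the entries that reached an IDR of 0.01 or less but are missing from the conservative list (added after seeing the data) 15.2% of member loci were repeated, against 8.97% of low intergenic loci and 5.19% of tall loci elsewhere. No paired comparison of samples was possible because there is a single group. Depth is unknown, so no peak's height has a counting error.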
